A study of Mus musculus with 8 samples.

Results

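The comparison described here asks what loss of Pcgf3 adds in mouse embryonic stem (ES) cells that already lack Pcgf5. Its members are 4 of the 8 poly-A RNA libraries of the series: the 2 double knockout libraries (genotype Pcgf3/5 DKO, written DKO below) and the 2 Pcgf5KO libraries, set against each other over all genes. The other 4 libraries are 2 of unedited wild-type cells (WT) and 2 of Pcgf3KO cells. All groups were C57BL/6 ES cells grown in serum and leukemia inhibitory factor on mouse embryonic fibroblasts inactivated with mitomycin-C, and every knockout was made with Cas9. The labels do not say whether a genotype is 1 clone or whether its replicates were separate cultures, so p-values measure the spread between these libraries, which may be technical.

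Pcgf proteins are alternative Polycomb group ring finger subunits of Polycomb repressive complex 1 (PRC1), which places ubiquitin on histone H2A through Ring1a or Ring1b. Pcgf3 and Pcgf5 are closely related paralogs and each forms a variant PRC1 without a Cbx protein, in which Rybp or Yaf2 takes that place. If the related subunits stand in for one another, a gene held by both would be touched only when the second one is lost as well. DKO against Pcgf5KO holds such genes together with genes that change at Pcgf3 loss alone. Pcgf3KO against WT is needed to tell them apart.

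Pcgf3 (a gene on chromosome 5) was read at 92.3 and 94.1 CPM (read counts scaled by library size) in the Pcgf5KO libraries and at 86.6 and 67.2 CPM in the DKO libraries. The DKO libraries lay below the Pcgf5KO libraries, with a log2 fold change of -0.28 ± 0.12 (SE) that did not pass the threshold (edgeR quasi-likelihood test, Benjamini-Hochberg adjusted p = 0.178). In the Pcgf3KO libraries it was read at 66.1 and 60.5 CPM, against 110 CPM in WT replicate 2. Pcgf5 was read at 12.3 and 9.06 CPM in Pcgf5KO and at 13.5 and 13.9 CPM in DKO, against 20.7 CPM in WT replicate 2. Gene counts do not show the edited exon, so they neither establish nor deny the edit: reads of both genes remained in every library.

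The 7 libraries with complete tables held 12652616 to 19923964 counts each, and WT replicate 1 lists 8093 of 47069 genes, so it stayed out of the tests. All 8 ES cell markers (Pou5f1, Nanog, Sox2, Zfp42, Esrrb, Dppa5a, Sall4 and Utf1) were present in each of the 7 libraries, with a summed level of 2273 to 2924 CPM. The DKO replicates differed from each other more than other replicates did, with a chi-square per gene of 18.4 against 3.32 for Pcgf3KO and 1.88 for Pcgf5KO. The correlation of log2 CPM between the DKO replicates was 0.991, against 0.997 in both other pairs. The tests below use a spread shared by all groups, so for DKO it is partly set by the tighter pairs. Adjusted p-values of DKO against Pcgf5KO may therefore be too small. Transcripts of Eif2s3y, a Y-linked translation factor gene, stood at 6.11 CPM in DKO replicate 1 and at 56.8 CPM in DKO replicate 2. Of other Y-linked genes, Ddx3y (83.5 and 67.5 CPM) and Uty (32.5 and 25.8 CPM) were higher in DKO replicate 1 and Kdm5d (14.8 and 22.1 CPM) was lower.

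Of 15669 genes tested in 1 fit of the 7 libraries, 156 were higher (0.996%) and 201 lower (1.28%) in DKO than in Pcgf5KO at an adjusted p of at most 0.05 (2.28% in all). All 357 had both DKO libraries beyond both Pcgf5KO libraries, as had 55% of all genes tested. Changes were mostly small: 41 of the higher and 19 of the lower genes reached 2-fold. The median over all genes tested was 0.02 on the log2 scale, a value that the scaling of the libraries sets near 0. These counts hang on the libraries in the fit: leaving out either Pcgf5KO library left 3 calls (Acta2, Efhc2 and Rhox5), leaving out a Pcgf3KO library left 12 or 10, and leaving out DKO replicate 1 or 2 gave 2453 or 6583. A fit of the 4 DKO and Pcgf5KO libraries alone, with 2 residual degrees of freedom, called 7 genes at an adjusted p of at most 0.05. It had 2976 at an unadjusted p of at most 0.05. In the fit of 7 libraries 4050 of the 15669 genes tested had an unadjusted p of at most 0.05, in either direction. That share is the background for the unadjusted edgeR counts of gene lists below. DESeq2 called 362 higher and 448 lower of the same 15669 genes, the background for its counts of gene lists.

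**Figure D1:**
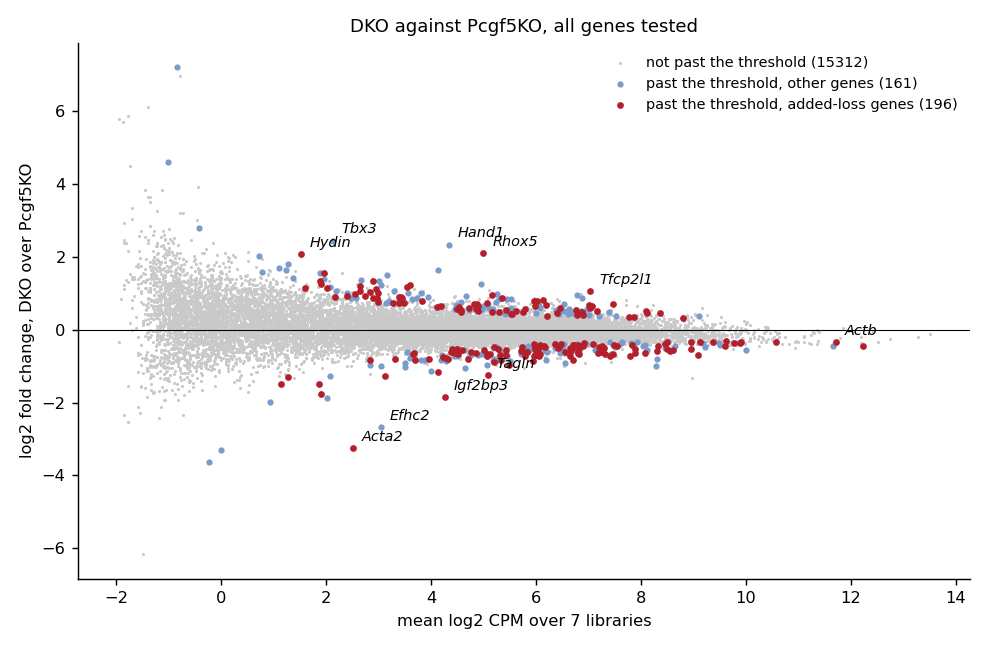
Each point is 1 of the 15669 genes tested; the horizontal axis is the mean log2 CPM over 7 libraries and the vertical axis the log2 fold change of DKO over Pcgf5KO. Red points are the 196 added-loss genes described below, blue points the other 161 genes past the threshold; Acta2 and Efhc2 lie lowest among the labelled genes and Tbx3, Hand1 and Rhox5 highest.

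A narrower set was then kept. For its genes the call in DKO against Pcgf5KO was joined by 3 conditions: no call and a log2 fold change under 0.5 in size for Pcgf5KO against WT, and both DKO libraries beyond every WT library that lists the gene. They are called added-loss genes below. There were 196 of them, 77 higher (0.491% of genes tested) and 119 lower (0.759%), of which 16 and 9 reached 2-fold. The median log2 fold change was 0.71 among the higher and -0.57 among the lower genes. These medians describe the choice, since the call and the conditions share libraries. WT replicate 1 lists 6 of the higher and 15 of the lower genes, so for the others the WT level is that of 1 library. A further 122 higher (0.779%) and 23 lower (0.147%) genes met the other conditions and reached 2-fold at an unadjusted p of at most 0.05, without a call; they are not counted as changed. Pcgf5KO against WT, which shares the Pcgf5KO libraries, had 1.31% of genes called higher and 1.68% lower. At the limit of 0.5, Fnip1 (-0.50) and Afap1 (-0.48) lay just inside by their Pcgf5KO against WT change, and Tbx3 (-0.51) and Exoc3l (0.51) just outside.

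Rhox5, an X-linked homeobox gene of the reproductive homeobox cluster (chrX:37804842-37808876, plus strand, mm10), showed the largest rise among the added-loss genes. It was read at 14.1 and 18.5 CPM in Pcgf5KO, at 63.3 and 77.2 CPM in DKO, at 16.9 and 16.6 CPM in Pcgf3KO and at 13.3 CPM in WT replicate 2. Only the DKO libraries were high, and the 5 other libraries lay close together. The rise was 4.34-fold, or 2.12 ± 0.15 on the log2 scale (edgeR, adjusted p = 0.000702). It was past the threshold in all 14 settings that tested it, the alternative tools, filters and left-out libraries included.

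Its neighbour Rhox6 behaved differently. Rhox6 was read at 4.79 and 4.04 CPM in Pcgf5KO, 8.17 and 9.64 CPM in DKO, 11.5 and 11.2 CPM in Pcgf3KO and 4.21 CPM in WT replicate 2, so it stood high wherever Pcgf3 was lost. The log2 fold change was 1.00045 ± 0.18 in DKO against Pcgf5KO (edgeR, adjusted p = 0.03) and 1.43 in Pcgf3KO against WT (adjusted p = 0.012). Of 32 genes of the cluster, a list written after the values were seen, 5 passed the filter on low counts. Rhox5 and Rhox6 rose and none fell. The 5 had a median of 1.00045 on the log2 scale, and of 1.0004 in Pcgf3KO against WT replicate 2. The list's median was thus as high at Pcgf3 loss in unedited cells. With the 4 DKO and Pcgf5KO libraries only, 1 of 4 tested was called. Rhox9, whose sequence is close to that of Rhox6 so that reads may be shared, was read at 4.26 and 5.34 CPM in Pcgf5KO and 5.85 and 8.15 CPM in DKO (adjusted p = 0.15).

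Tfcp2l1, a transcription factor of the naive pluripotency network, rose from 84.3 and 83.9 CPM in Pcgf5KO to 182 and 171 CPM in DKO. The Pcgf3KO libraries, at 142 and 146 CPM, lay between these and WT replicate 2 at 103 CPM lay below them. The log2 fold change was 1.07 ± 0.08 at Pcgf3 loss in Pcgf5KO cells (edgeR, adjusted p = 0.000702) and 0.48 in unedited cells (adjusted p = 0.0332), and the difference between these was itself past the threshold (adjusted p = 0.0298). The rise was thus not confined to cells without Pcgf5.

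**Figure D2:**
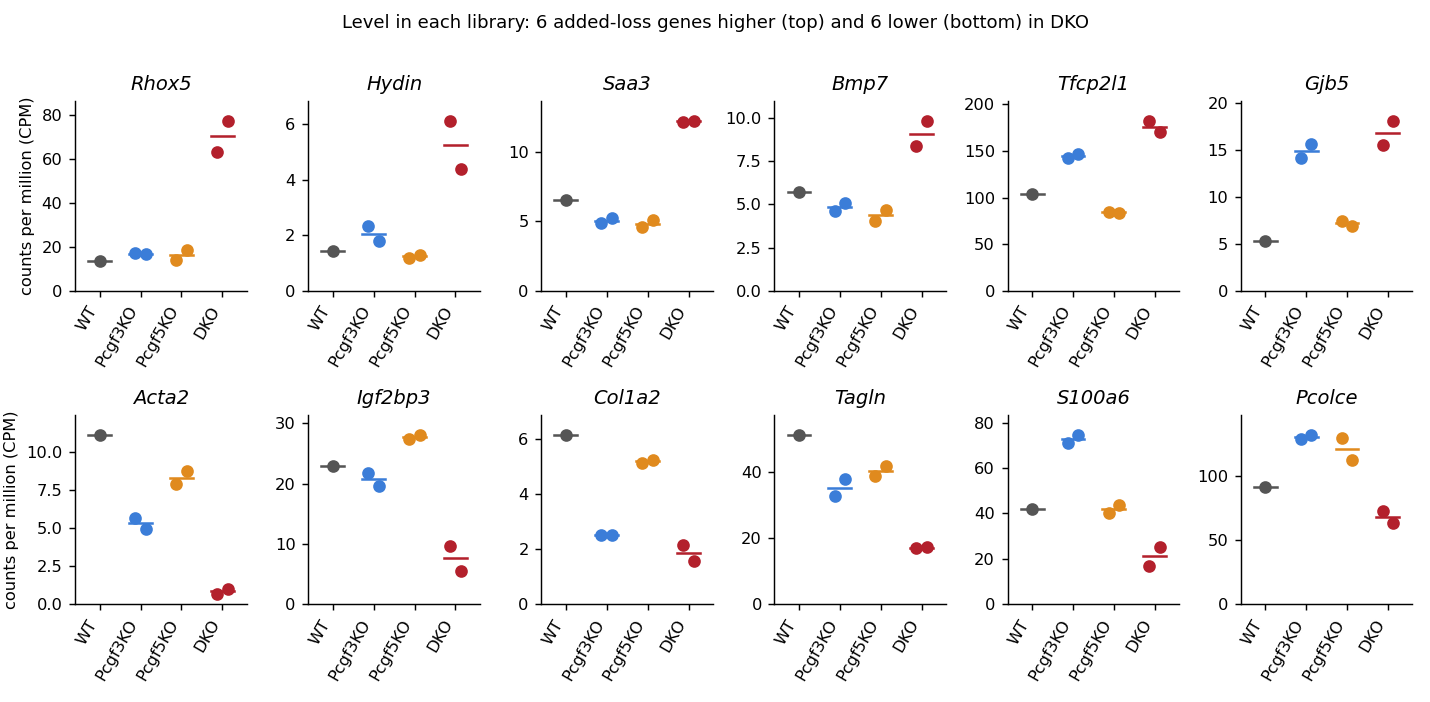
Level in CPM (vertical axes, from 0) in each of the 7 libraries with complete tables for 6 added-loss genes that were higher in DKO (top) and 6 that were lower (bottom); points are libraries and bars group means, WT being 1 library. Rhox5, Saa3 and Bmp7 stand high in DKO alone; Tfcp2l1 and Gjb5 stand high in Pcgf3KO as well; Acta2 is near 0 in both DKO libraries.

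Bmp7, a bone morphogenetic protein ligand, was read at 4.02 and 4.69 CPM in Pcgf5KO and at 8.38 and 9.83 CPM in DKO, above Pcgf3KO (4.64 and 5.09 CPM) and WT replicate 2 (5.69 CPM). Its log2 fold change was 1.07 ± 0.18 (edgeR, adjusted p = 0.0279). Saa3, an acute phase serum amyloid gene, rose in the same way, from 4.56 and 5.09 CPM to 12.2 CPM in both DKO libraries, with 6.55 CPM or less in the rest (1.34 ± 0.16, adjusted p = 0.0112). Ptges, which codes for prostaglandin E synthase, was read at 4.08 and 4.53 CPM in Pcgf5KO and 8.12 and 11.5 CPM in DKO (adjusted p = 0.0381). Adcy5, an adenylyl cyclase gene that makes cyclic AMP, moved from 2.31 and 2.26 CPM to 5.74 and 5.19 CPM (adjusted p = 0.0396). Cacna2d2, an auxiliary calcium channel subunit gene, moved from 4.79 and 6.23 CPM to 11.8 and 12.2 CPM (adjusted p = 0.0212). Against WT replicate 2 the log2 fold changes of DKO were smaller than against Pcgf5KO. They were 0.68 for Bmp7, 0.90 for Saa3, 0.74 for Ptges, 0.78 for Adcy5 and 0.95 for Cacna2d2. All 5 genes had lower values in Pcgf5KO than in WT replicate 2 (log2 fold change -0.19 to -0.48), which adds to their rise against Pcgf5KO.

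Further added-loss genes reached 2-fold. Hydin, needed for the central apparatus of motile cilia, was read at 1.18 and 1.29 CPM in Pcgf5KO and at 6.11 and 4.40 CPM in DKO. Its log2 fold change was 2.08 ± 0.30 (edgeR, adjusted p = 0.0166). Fbp2, a fructose bisphosphatase of gluconeogenesis, went from 2.25 and 2.43 CPM to 4.64 and 9.04 CPM, with its DKO libraries nearly 1 log2 unit apart. Nkx6-3, a homeobox gene, stood at 2.01 and 2.10 CPM in Pcgf5KO and 5.59 and 4.94 CPM in DKO, above its Pcgf3KO values of 3.38 and 4.08 CPM. Grik3, a kainate receptor gene, was read at 5.56 and 7.84 CPM in Pcgf5KO and 12.6 and 17.5 CPM in DKO, and its Pcgf3KO values (11.99 and 15.2 CPM) overlapped those of DKO. Pudp, Gpr179 and Slc26a11 rose by 1.15, 1.14 and 1.05 on the log2 scale. Against WT replicate 2 the log2 fold change of DKO was 0.83 for Grik3 and 0.81 for Slc26a11. For Hydin, Fbp2, Nkx6-3, Pudp and Gpr179 it was 1.88, 1.66, 1.28, 1.47 and 1.56.

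Gjb5, a gap junction gene of trophoblast and epidermis, rose at Pcgf3 loss in both backgrounds. It was read at 7.46 and 6.87 CPM in Pcgf5KO, 15.5 and 18.0 CPM in DKO and 14.1 and 15.6 CPM in Pcgf3KO, against 5.24 CPM in WT replicate 2. The log2 fold change was 1.22 ± 0.15 in Pcgf5KO cells (edgeR, adjusted p = 0.0112) and 1.502 in unedited cells (adjusted p = 0.00557). The difference between the backgrounds did not pass the threshold (edgeR interaction, adjusted p = 0.526). Of the 23 tested genes of the list of keratins, desmosomes and junctions 2 rose, Gjb5 among them, and 2 fell. Over all genes 0.996% rose and 1.28% fell. The list's falls were Jup and Cldn6, and its median was -0.24.

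Among the lower genes, Acta2 showed the largest fall. Acta2, the smooth muscle actin gene (chr19:34241090-34255336, minus strand), was read at 7.87 and 8.73 CPM in Pcgf5KO and at 0.685 and 1.04 CPM in DKO. The Pcgf3KO libraries were at 5.69 and 4.92 CPM and WT replicate 2 at 11.1 CPM, so DKO lay below every other library. The fall was -3.25 ± 0.25 on the log2 scale (edgeR, adjusted p = 0.000825). In unedited cells Acta2 also fell at Pcgf3 loss, by 1.06 on the log2 scale (adjusted p = 0.0411), and the difference between both falls was past the threshold (adjusted p = 0.0111). Like Rhox5, it was past the threshold in all 14 settings that tested it.

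Tagln, coding for transgelin, an actin binding protein of smooth muscle and fibroblasts, was read at 38.9 and 41.9 CPM in Pcgf5KO and at 17.0 and 17.2 CPM in DKO, below 32.7 and 37.9 CPM in Pcgf3KO and 51.2 CPM in WT replicate 2. Its log2 fold change was -1.24 ± 0.11 (edgeR, adjusted p = 0.00236). The gene overlaps Pcsk7 on the other strand and the libraries carry no strand information, so where both overlap their reads cannot be told apart. The same limit holds for Efhc2 (with Gm14514), Tmem88 (with Naa38) and Tm6sf1 (with Hdgfl3), named below.

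Other genes of the actin cytoskeleton fell as well. Of 37 tested genes of a list of actin, myosin light chain and actin binding genes, 13 fell, 0 rose and 24 did not pass the threshold, where 1.28% of all genes fell; the list was written after such genes were seen among the calls. The falls dropped to 2 with the 4 DKO and Pcgf5KO libraries only or without either Pcgf3KO library, and to 1 without either Pcgf5KO library. DESeq2 called 18 lower and 0 higher, where it called 448 lower and 362 higher of all 15669 genes. At an unadjusted p of at most 0.05 edgeR had 23 lower and 1 higher. The list's median was -0.34, against 0.02 over all genes tested. Both DKO libraries lay below both Pcgf5KO libraries for 29 of the 37, against 27.7% of all genes. Actb, the cytoplasmic beta actin gene, fell from 3677 and 3594 CPM in Pcgf5KO to 2734 and 2998 CPM in DKO, with 3411 to 3558 CPM in Pcgf3KO and WT replicate 2. Tmsb4x, coding for the actin monomer binding thymosin beta 4, fell from 424 and 419 CPM to 283 and 284 CPM. Pfn1, coding for profilin, another monomer binding protein, fell from 1194 and 1241 CPM to 762 and 896 CPM. Actin and thymosin genes have close copies in the genome, so part of their counts may be shared between copies.

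Regulators of contraction fell too. Cnn2 (calponin 2) was read at 178 CPM in both Pcgf5KO libraries and at 94.6 and 131 CPM in DKO. Its log2 fold change was -0.66 ± 0.13 (edgeR, adjusted p = 0.0412). The myosin light chain gene Myl6 fell from 176 and 184 CPM to 123 and 132 CPM, below WT replicate 2 at 136 CPM. Myl9, its smooth muscle relative, fell from 14.9 and 15.7 CPM to 8.54 and 9.39 CPM; it had stood above WT replicate 2 (9.62 CPM) in Pcgf5KO and is therefore no added-loss gene. Synpo2, Csrp1, Myl12b, Flna and Dstn fell by 0.82, 0.52, 0.51, 0.36 and 0.33 on the log2 scale. Not all of the list moved: Vcl, Srf, Myh9, Tpm1 and Tln1 did not pass the threshold.

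Many genes of this kind are known targets of serum response factor, which binds the CArG box, a 10-base motif of CC, then 6 bases that are A or T, then GG, which reads as the same pattern on both strands. The boxes of the 3 genes that fell and hold one in the 250 bases before their RefSeq start are shown with 10 bases on each side, 5′ to 3′ on the gene's strand (build GRCm38.p6), the box in capitals. They lie at chr10:79988534-79988563 (Cnn2, plus strand), chr10:128493040-128493069 (Myl6, minus strand) and chr2:156775293-156775322 (Myl9, plus strand).
Cnn2: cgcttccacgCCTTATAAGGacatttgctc
Myl6: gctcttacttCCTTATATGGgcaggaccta
Myl9: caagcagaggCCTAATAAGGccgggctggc
These 3 were among 11 listed genes that fell and matched the RefSeq table, and 4 of the 22 matched genes of the list that were not called lower hold a box as well (Acta1, Actg1, Srf and Vcl). A box was found for 1.4% of the 11456 tested genes that matched and for 1.62% of all 27025 genes in the table. The Acta2 window held none by this pattern. A match is a run of letters, not a shown binding site.

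**Figure D3:**
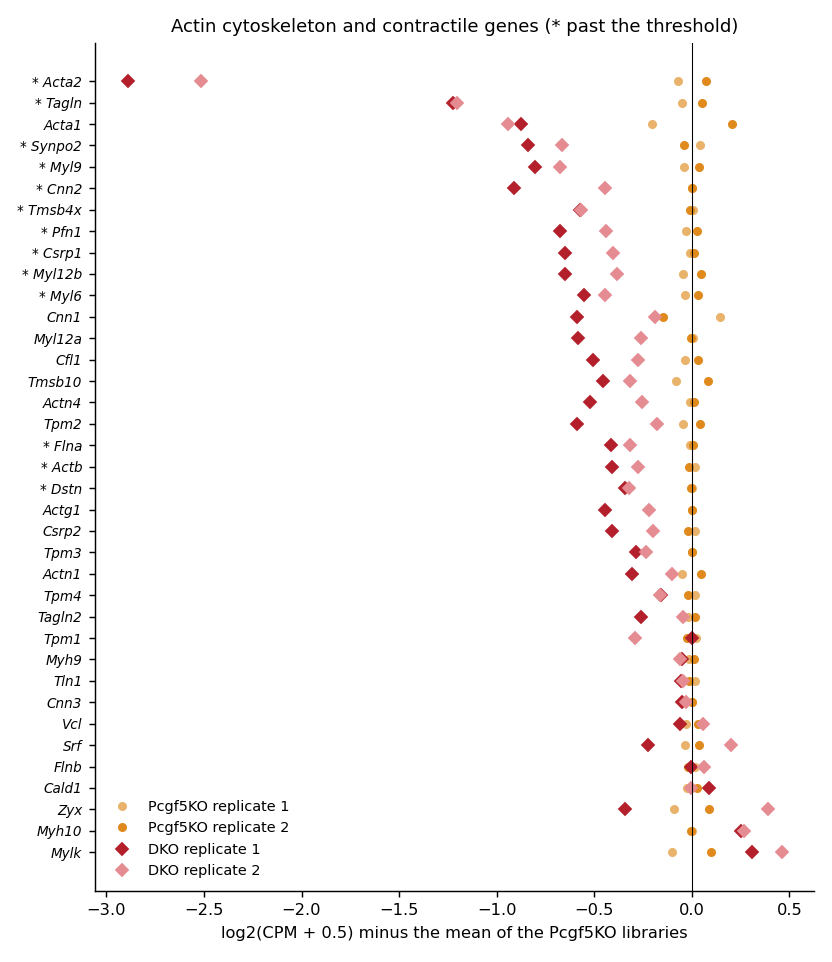
Each line is 1 of the 37 tested genes of the actin list; the horizontal axis is log2(CPM + 0.5) of each DKO and Pcgf5KO library minus the mean of the 2 Pcgf5KO libraries, and an asterisk marks the 13 genes past the threshold. Both DKO libraries lie left of 0 for most genes, DKO replicate 1 mostly further than DKO replicate 2.

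Feeder fibroblasts also express smooth muscle genes, so their markers were read beside these falls. The summed level of 11 fibroblast markers (Col1a1, Col1a2, Col3a1, Thy1, Twist1, Prrx1, Lum, Dcn, Postn, Mmp2 and Tagln) was 99.97 and 100.5 CPM in Pcgf5KO, 79.8 and 96.0 CPM in DKO, 77.6 and 87.9 CPM in Pcgf3KO and 137 CPM in WT replicate 2. Without Tagln, itself one of the falls, the other 10 summed to 61.0 and 58.6 CPM in Pcgf5KO and to 62.8 and 78.8 CPM in DKO, so the lower sum in DKO came with Tagln. None was at 0 in all libraries and 3 stayed under 1 CPM in each. Postn was at 0 in DKO replicate 1. Members went opposite ways: Col1a2 fell from 5.15 and 5.26 CPM to 2.16 and 1.58 CPM, while Thy1 was read at 17.8 and 16.1 CPM in Pcgf5KO and at 22.1 and 33.3 CPM in DKO. Over the longer list of 25 tested fibroblast genes, Acta2, Tagln, Col1a2 and S100a6 fell, Col6a1 and Fbln2 rose, 19 did not pass the threshold and the median was 0.01. Fn1 and Vim, both abundant in fibroblasts, stood at 996 and 1046 CPM and at 87.8 and 86.1 CPM in Pcgf5KO, and at 1138 and 974 CPM and at 84.2 and 86.3 CPM in DKO. In bulk RNA, fewer cells of a type and less RNA per cell cannot be told apart, and the part of feeder cells in these falls was not tested.

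Igf2bp3, coding for an RNA binding protein of fetal tissue, fell in DKO only. The gene overlaps Malsu1 on the other strand, so reads where both overlap cannot be told apart. It was read at 27.4 and 28.1 CPM in Pcgf5KO, 21.8 and 19.6 CPM in Pcgf3KO, 22.9 CPM in WT replicate 2, and 9.75 and 5.58 CPM in DKO. The log2 fold change was -1.86 ± 0.21 (edgeR, adjusted p = 0.0112) and its interaction was past the threshold (adjusted p = 0.0224). S100a6, a calcium binding protein gene, fell from 40.0 and 43.6 CPM in Pcgf5KO to 17.0 and 25.5 CPM in DKO but stood at 71.0 and 74.5 CPM in Pcgf3KO, against 41.8 CPM in WT replicate 2. Loss of Pcgf3 thus went with higher S100a6 values in unedited cells, where the change did not pass the threshold (adjusted p = 0.0703), and with lower ones in Pcgf5KO cells.

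Kdr and Col1a2 were lower at Pcgf3 loss in both backgrounds, where the unedited cells are read from WT replicate 2. Kdr, the vascular endothelial growth factor receptor gene of early mesoderm, was read at 21.4 and 26.3 CPM in Pcgf5KO, 8.70 and 12.6 CPM in DKO, 12.4 and 11.5 CPM in Pcgf3KO and 30.5 CPM in WT replicate 2, while WT replicate 1 lists it at 14.6 CPM. Its log2 fold change was -1.15 ± 0.18 in Pcgf5KO cells (edgeR, adjusted p = 0.022) and -1.35 in unedited cells (adjusted p = 0.012). The unedited value hangs on WT replicate 2, since WT replicate 1, outside the fit, lay much nearer to the Pcgf3KO libraries. Col1a2, a type I collagen gene, changed by -1.48 and -1.29. Neither difference between backgrounds was past the threshold (adjusted p = 0.714 and 0.789).

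Pax6, a neural and eye homeobox gene, was read at 2.96 and 2.75 CPM in Pcgf5KO and 0.896 and 1.14 CPM in DKO (edgeR, adjusted p = 0.0419). Gbx2, a homeobox gene of naive cells and hindbrain, fell from 49.95 and 57.5 CPM to 27.1 and 33.1 CPM (adjusted p = 0.0176). Pcolce, a procollagen processing enhancer, was read at 129 and 132 CPM in Pcgf3KO, 130 and 113 CPM in Pcgf5KO, 91.8 CPM in WT replicate 2 and 72.8 and 63.5 CPM in DKO. The libraries of both single knockouts thus stood above WT replicate 2 and those of the double knockout below it (log2 fold change in DKO against Pcgf5KO -0.84 ± 0.0999, adjusted p = 0.0112; interaction adjusted p = 0.00441). Tubb3, a neuronal tubulin gene, fell from 203 and 191 CPM to 98.2 and 140 CPM.

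Wnt target genes gave 2 falls of 16 tested list members, against 1.28% of all genes, and no rise. With the 4 DKO and Pcgf5KO libraries only, 0 were called. The list's median was -0.49. Taken by library against the mean of the Pcgf5KO libraries, on the log2(CPM + 0.5) scale, it was -0.54 for DKO replicate 1 and -0.17 for replicate 2. Ccnd1, coding for cyclin D1, fell from 182 and 176 CPM in Pcgf5KO to 112 and 121 CPM in DKO, with 123 and 137 CPM in Pcgf3KO. Myc fell from 116 and 122 CPM to 71.2 and 88.5 CPM, with 92.7 and 93.8 CPM in Pcgf3KO and 129 CPM in WT replicate 2. Proliferation genes as a list of 27 had 0 edgeR calls in either direction, a median of -0.13 and 1 call in each direction by DESeq2. At an unadjusted edgeR p of at most 0.05, 2 were higher and 9 lower. Of all 15669 genes tested 4050 passed that mark in either direction.

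Enzymes that make NADPH or work with glutathione were among the falls. Of 23 tested genes of a list of the pentose phosphate route and glutathione, written after the values were seen, 7 fell (against 1.28% of all genes), 0 rose and the median was -0.24. With the 4 DKO and Pcgf5KO libraries only, or without any 1 of the Pcgf3KO or Pcgf5KO libraries, 0 were called and 9 to 11 were lower at an unadjusted p of at most 0.05. DESeq2 called 9 lower and 0 higher, where it called 448 lower and 362 higher of all genes. The unadjusted edgeR counts were 14 lower and 1 higher. Pgd, coding for phosphogluconate dehydrogenase, fell from 681 and 679 CPM in Pcgf5KO to 369 and 475 CPM in DKO, and G6pdx, the entry enzyme of the route, from 175 and 176 CPM to 96.9 and 133 CPM. Gpx4 and Gpx1, glutathione peroxidase genes, fell by 0.64 and 0.65 on the log2 scale. Gstp1, a glutathione transferase gene, had risen in both single knockouts (46.2 and 52.9 CPM in Pcgf3KO, 44.7 and 41.8 CPM in Pcgf5KO, 21.2 CPM in WT replicate 2) and stood at 24.7 and 25.0 CPM in DKO. Gstp2, its close copy, and Txn1, the thioredoxin gene, were the other falls.

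In glycolysis 5 of 27 tested genes fell and 1 rose, with a median of 0.01, where 1.28% of all genes fell and 0.996% rose. DESeq2 called 8 lower and 2 higher, where it called 448 lower and 362 higher of all genes. With the 4 DKO and Pcgf5KO libraries only 0 were called. Slc2a1, the glucose transporter gene, fell from 454 and 417 CPM in Pcgf5KO to 284 and 310 CPM in DKO (edgeR, adjusted p = 0.0157), and was at 406 to 433 CPM in Pcgf3KO and WT replicate 2. Eno3, Eno1, Gapdh and Tpi1 fell by 0.72, 0.45, 0.44 and 0.32 on the log2 scale. Ero1l, an oxidase of the endoplasmic reticulum that responds to low oxygen, rose from 70.2 and 69.1 CPM to 130 and 99.8 CPM.

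The added-loss genes were then read at the same loss in unedited cells. The comparison of Pcgf3KO with WT shares no library with that of DKO with Pcgf5KO, though WT is 1 library there and also entered the choice of the added-loss genes. Its calls covered 1.08% (higher) and 1.28% (lower) of genes tested. Among the 77 higher added-loss genes its median was 0.00 and among the 119 lower 0.05. It was past the threshold in the same direction for 6 of the 77 (among them Gjb5, Rhox6, Ildr1, Ptprj and Tfcp2l1) and 4 of the 119 (Kdr, Col1a2, Acta2 and Bahcc1), and in the opposite direction for 0 and 1 (Pla2g7). Several of these were first named here after their values were seen.

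The difference of the changes themselves, (DKO minus Pcgf5KO) minus (Pcgf3KO minus WT), was tested in the same fit. It was past the threshold for 3.79% of all genes tested, 278 higher (1.77%) and 316 lower (2.02%). Among the added-loss genes it was past the threshold in the direction of the change for 22 of the 77 higher and 50 of the 119 lower genes. As the added-loss genes were chosen on Pcgf5KO libraries that also enter this difference, these shares describe the choice and support nothing. For 50 higher and 66 lower genes, neither this difference nor a change in the same direction in Pcgf3KO was past the threshold, so for them these libraries do not resolve whether the change at Pcgf3 loss differs with Pcgf5.

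**Figure D4:**
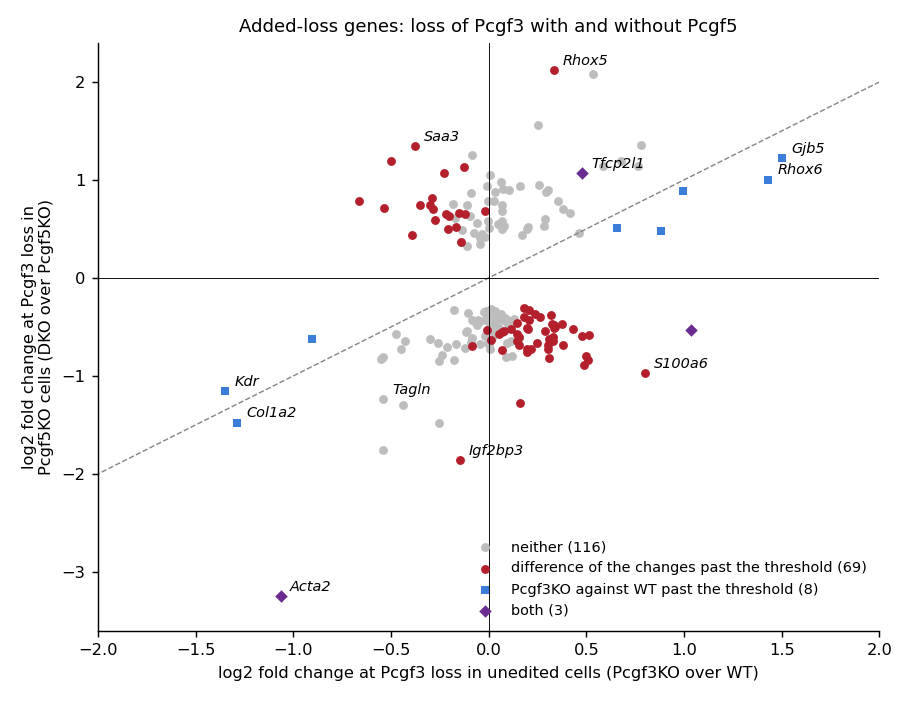
Each point is 1 of the 196 added-loss genes; the horizontal axis is the log2 fold change at Pcgf3 loss in unedited cells (Pcgf3KO over WT replicate 2) and the vertical axis that in Pcgf5KO cells (DKO over Pcgf5KO), with a dashed line where both are equal. Kdr, Col1a2, Gjb5 and Rhox6 lie near that line, while Rhox5 (0.33 and 2.12) and Igf2bp3 (-0.15 and -1.86) lie far from it.

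Some of the largest changes between DKO and Pcgf5KO were in genes that had already moved with Pcgf5 or Pcgf3 loss. Hand1, a transcription factor of mesoderm and trophoblast, was read at 45.8 CPM in WT replicate 2, 7.81 and 10.8 CPM in Pcgf3KO, 6.98 and 5.18 CPM in Pcgf5KO, and 16.0 and 46.4 CPM in DKO. It was thus low in both single knockouts, and DKO replicate 2 stood at the level of WT while DKO replicate 1 did not (log2 fold change 2.34 ± 0.45, edgeR, adjusted p = 0.0373). Igf2, the imprinted growth factor gene, was also higher in DKO than in Pcgf5KO, but both DKO libraries stayed below WT replicate 2. It was read at 268 CPM in WT replicate 2, 67.0 and 69.8 CPM in Pcgf5KO and 95.0 and 157 CPM in DKO. Col4a1, a basement membrane collagen gene, went from 70.6 and 72.5 CPM in Pcgf5KO to 93.9 and 120 CPM in DKO, against 200 CPM in WT replicate 2. Hmga2, coding for a chromatin protein of embryonic cells, stood at 4.26 and 4.53 CPM in Pcgf5KO, 13.7 and 8.60 CPM in DKO and 14.9 CPM in WT replicate 2.

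Tbx3, a T-box factor of naive cells, just missed the limit on the Pcgf5KO change. It was read at 1.48 and 2.02 CPM in Pcgf5KO, 2.17 and 1.57 CPM in Pcgf3KO, 2.45 CPM in WT replicate 2 and 7.43 and 11.5 CPM in DKO. Only DKO was high, with a log2 fold change of 2.45 ± 0.30 (edgeR, adjusted p = 0.0112; interaction adjusted p = 0.0176). Sema5a, an axon guidance gene, was read at 9.53 and 8.98 CPM in Pcgf5KO, 32.3 and 25.8 CPM in DKO, 13.1 and 13.0 CPM in Pcgf3KO and 17.8 CPM in WT replicate 2. Otx2, a primed epiblast homeobox factor, was read at 1.82 CPM in WT replicate 2, 4.85 and 4.29 CPM in Pcgf5KO and 13.8 and 9.83 CPM in DKO (adjusted p = 0.0211), and its change at Pcgf5 loss did not pass the threshold (adjusted p = 0.0645). Pcdh19, an X-linked protocadherin gene, was read at 4.91 and 6.31 CPM in Pcgf5KO and 17.4 and 14.1 CPM in DKO.

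Efhc2, an X-linked gene of ciliary microtubules, was low in every library without Pcgf3. It was read at 21.6 CPM in WT replicate 2 and 15.7 and 12.4 CPM in Pcgf5KO, but at 2.42 and 2.13 CPM in Pcgf3KO and 2.27 and 2.17 CPM in DKO. The log2 fold change at Pcgf3 loss was -2.66 ± 0.19 in Pcgf5KO cells (edgeR, adjusted p = 0.000702) and -3.24 in unedited cells (adjusted p = 0.000352). Its Pcgf5KO against WT value was -0.62 (adjusted p = 0.122), beyond the limit of 0.5. Maml2, a Notch coactivator gene, went the other way: 0.968 CPM in WT replicate 2, 6.45 and 6.47 CPM in Pcgf5KO, 5.54 and 4.59 CPM in Pcgf3KO and 2.95 and 2.37 CPM in DKO.

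The pluripotency network did not move one way. Of 24 tested genes of naive and core pluripotency, Tfcp2l1, Tbx3 and Klf4 rose, Nr5a2, Dppa2, Dppa5a, Pou5f1 and Dppa3 fell and 16 did not pass the threshold. The median was -0.12. Over all genes 0.996% rose and 1.28% fell. With the 4 DKO and Pcgf5KO libraries only, 1 of the 24 was called higher and 0 lower. Pou5f1, the Oct4 gene, was at 260 and 261 CPM in Pcgf5KO and at 207 and 199 CPM in DKO, against 196 CPM in WT replicate 2. Dppa3, a germ cell and naive cell marker, fell from 36.1 and 34.9 CPM to 18.8 and 25.4 CPM, and Nr5a2, an orphan nuclear receptor gene, from 74.2 and 70.3 CPM to 49.9 and 50.3 CPM. Of 16 tested primed epiblast genes, Otx2 and Zic5 rose and Pim2 and Grhl2 fell (median -0.06).

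Targets of p53, the stress response factor, gave 4 rises (Trp53inp1, Pmaip1, Mdm2 and Btg2) and 0 falls over 23 tested genes. Over all genes 0.996% rose and 1.28% fell. The list's median was 0.10. With the 4 DKO and Pcgf5KO libraries only, 0 were called. DESeq2 called 5 higher and 1 lower, where it called 362 higher and 448 lower of all genes. At an unadjusted edgeR p of at most 0.05, 8 were higher and 3 lower, where 4050 of 15669 genes passed in either direction. Trp53inp1 was read at 140 and 138 CPM in Pcgf5KO and 250 and 204 CPM in DKO, above all other libraries. Pmaip1, coding for the cell death protein Noxa, stood at 72.9 and 78.2 CPM in Pcgf5KO and 110 and 107 CPM in DKO, against 121 CPM in WT replicate 2, and Mdm2 at 106 CPM in both Pcgf5KO libraries and 148 and 134 CPM in DKO, against 168 CPM. Both genes were lower in Pcgf5KO than in WT replicate 2, and Pmaip1 was also lower in Pcgf3KO (log2 fold change -0.93). In DKO Pmaip1 came near WT replicate 2, while Mdm2 lay between Pcgf5KO and WT replicate 2. Of 24 interferon response and antigen presentation genes, Ifitm3, Ddx58 and Ifitm1 fell and 0 rose (median -0.07), where 1.28% of all genes fell. DESeq2 gave the same numbers, and the 4 DKO and Pcgf5KO libraries only gave 0 calls. At an unadjusted edgeR p of at most 0.05, 1 was higher and 3 were lower.

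Genes that Polycomb complexes mark in ES cells, and the Polycomb genes themselves, were read against the 2.28% of all genes called. Of 16 tested Polycomb-marked regulators 0 rose and 1 fell, Lhx9, which had 0.0527 and 0.0494 CPM in DKO and 0.769 and 0.647 CPM in Pcgf5KO, too few reads for a fold. DESeq2 called 0 of the 16 in either direction, and at an unadjusted edgeR p of at most 0.05 there were 0 higher and 3 lower. Of 24 Hox genes 5 passed the filter and 0 were called by edgeR or DESeq2, 2 being higher at an unadjusted edgeR p of at most 0.05, with a median of 0.86: Hoxd1 was read at 0.178 and 0.243 CPM in Pcgf5KO and at 0.843 and 0.791 CPM in DKO (edgeR, adjusted p = 0.0836). Of 39 Polycomb subunit genes 1 rose, Suz12 of PRC2, at 304 and 285 CPM in Pcgf5KO and 446 and 364 CPM in DKO. The 24 tested germline and meiosis genes, many of them targets of variant PRC1 that holds Pcgf6, had a median of 0.30. None was called by edgeR or DESeq2, and 9 were higher and 0 lower at an unadjusted edgeR p of at most 0.05. Of all 15669 genes tested 4050 passed that mark in either direction. Of the 18 listed genes of the 2-cell-like state found in the tables none passed the filter.

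The remaining lists are given by their calls, again beside 2.28% of all genes. Of 37 imprinted genes Igf2, Igf2r and Peg10 rose and Grb10 fell (median -0.03). Mesoderm genes gave Hand1 higher and Kdr lower of 22, endoderm genes Col4a1 higher of 15, neural genes Tubb3 and Pax6 lower of 15, and trophectoderm genes Hand1 and Tfap2c higher of 15. Among 26 genes of Nodal, TGF-beta and BMP signalling Bmp7 and Lefty2 rose and Nodal fell, from 74.6 and 78.0 CPM to 51.8 and 52.3 CPM. FGF feedback genes gave Etv5 lower of 16, sterol and fatty acid synthesis genes Idi1 higher of 31, and amino acid and ER stress genes Xbp1 lower of 27. At an unadjusted edgeR p of at most 0.05, 12 of the sterol and fatty acid genes were higher and 0 lower. Of the amino acid and ER stress genes 1 was higher and 10 were lower. Of all 15669 genes tested 4050 passed that mark in either direction. YAP targets, 16 tested, had 0 calls by edgeR or DESeq2, with 3 higher and 2 lower at an unadjusted edgeR p of at most 0.05. The same held for 14 mitochondrial and histone transcripts read as a sign of RNA quality (0 higher and 3 lower unadjusted, median -0.06) and for 5 sex-linked genes (1 higher unadjusted).

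Transcript length moved with the direction of the calls. The median exonic length was 6496.5 bases for the 156 higher genes, 3199 for the 201 lower genes and 4122 for all genes tested. Among the added-loss genes it was 7184 and 3199. In the longest quintile of genes 69 were called higher and 23 lower, and in the shortest quintile 12 and 54. Over all genes of the shortest quintile the median difference of DKO replicate 1 from the mean of the Pcgf5KO libraries was -0.11 on the log2(CPM + 0.5) scale. Over the longest it was 0.18, and for DKO replicate 2 the values were -0.06 and 0.06. The reference differed with length too. Pcgf5KO against WT replicate 2 had a median log2 fold change of 0.14 in the shortest quintile and -0.09 in the longest. For Pcgf3KO against WT replicate 2 these medians were 0.07 and -0.03. The condition on Pcgf5KO against WT and the interaction thus also carry a trend with length. DKO replicate 1 was also further from Pcgf5KO than replicate 2 in 103 of the 119 lower and 46 of the 77 higher added-loss genes. An offset that removes each library's trend with length, added after seeing the data, called 167 higher and 284 lower, 308 of the 357 among them. The part of length in single results was not tested.

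**Figure D5:**
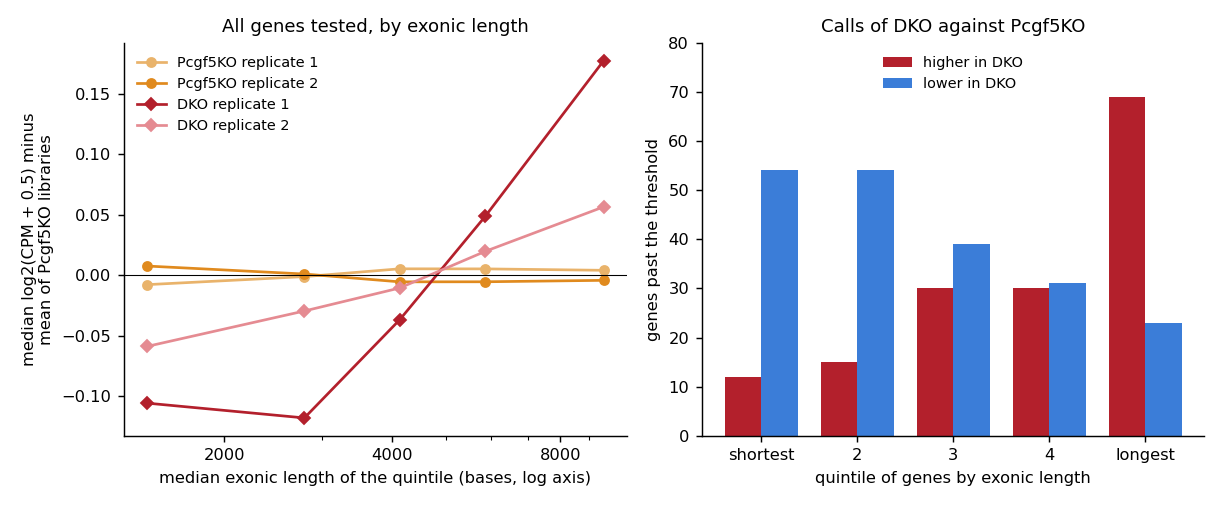
Left, median difference of each DKO and Pcgf5KO library from the mean of the Pcgf5KO libraries on the log2(CPM + 0.5) scale (vertical axis) in each quintile of the tested genes by exonic length (horizontal axis, log scale); right, bars count the genes called higher and lower in DKO in each quintile. The line of DKO replicate 1 climbs from -0.11 to 0.18 and that of DKO replicate 2 from -0.06 to 0.06.

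Within the actin list, 11 of the 13 genes that fell had an exonic length under the 4122 bases of the median gene, Acta2 (2196), Tagln (1988) and Tmsb4x (1371) among them, and Flna (9400) and Synpo2 (13089) lay over it. Of the 24 listed genes without a call 12 lay under it. The median length was 2405 bases for the 13 and 4375 for the 24. With the length offset 15 of the 37 actin genes were lower, where 284 of all 15623 genes tested with it were lower. The median of the actin list was -0.28 with the offset and -0.25 without DKO replicate 1. The pentose phosphate and glutathione list had 7 falls and a median of -0.26 with the offset and of -0.14 without DKO replicate 1.

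On the X chromosome, which carries 3.62% of the genes tested, lay 12 of the higher and 11 of the lower genes, or 6.44% of the 357. Xist, the RNA of X inactivation, was at 0.683 to 3.58 CPM in all 7 libraries. Rhox5, Rhox6, Pcdh19, Efhc2 and Tmsb4x were among the X-linked genes called.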

How the data were processed

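Poly-A RNA was extracted with TRIzol and made into libraries with a NEBNext Ultra kit that does not mark strand, per the labels' protocols. The deposited files hold the authors' read counts per Ensembl gene, whole numbers without normalization; the submitters' processing notes name TopHat2 2.0.12, Cufflinks 2.2.1, HTSeq 0.6.0 and mm10, without roles or order. The annotation, strand setting and filters were not given in the sources used here. WT replicate 1 lists 8093 of 47069 genes (17.2%) and was left out of the fit of 7 libraries.

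Counts were tested with edgeR 4.0.16 in R 4.3.3 (TMM, filterByExpr, quasi-likelihood test, groups as the only term, 3 residual degrees of freedom, Benjamini-Hochberg over all genes tested, threshold 0.05). The procedure was run on simulated data in which all groups shared the same spread for each gene. The wider spread between the DKO replicates was not simulated, so that run does not bear on it. CPM use TMM library sizes; ± after a log2 fold change is the SE. Symbols, positions and exonic lengths came from GENCODE vM21, promoters from RefSeq. Named genes are the 15 largest rises and falls (mean log2 CPM 1 or more), up to 15 added-loss genes a direction, up to 3 members of each list, both targeted genes, the 4 most abundant feeder markers, sex-linked genes and 5 interaction genes a direction; further called list members were named after their values were seen. A few genes are not reported here. Members and lists were chosen with earlier results of these data known. Alternatives were RLE factors, DESeq2 1.42.0, no filter, the replicate number as a block, 4 or 8 libraries, each library left out, other limits, and, added later, a length offset.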

Additional observations from a re-analysis of the deposited data

Results flagged for a closer look

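For the genes named here the change at Pcgf3 loss differed between Pcgf5KO cells and unedited cells by the test of that difference (edgeR interaction, adjusted p of at most 0.05, against 3.79% of all genes tested). These genes were picked by their change in DKO against Pcgf5KO or by this same difference, and only those past the threshold were kept. The 3.79% is thus no background for them, and their passing describes the choice. The unedited change rests on WT replicate 2 alone, and the values below are the log2 change in Pcgf5KO cells minus that in unedited cells.

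The positive differences that follow belong to genes with a negative fitted value at Pcgf3 loss in unedited cells and a positive one in Pcgf5KO cells. They were 4.64 for Hand1, 3.80 for Il3ra, 3.12 for Hmga2, 3.01 for Tm6sf1, 2.84 for Tbx3, 2.75 for Pcdh19, 2.42 for Dcaf12l1, 2.16 for Col4a1, 2.09 for Sema5a, 2.03 for Cd302, 1.79 for Plk2, 1.72 for Saa3, 1.70 for Ptges, 1.45 for Lefty2, 1.45 for Pmaip1, 1.30 for Bmp7 and 1.26 for Cacna2d2. Rhox5 (1.78) and Tfcp2l1 (0.59) had a positive value in both backgrounds and the larger one in Pcgf5KO cells. Dcaf12l1, an X-linked gene, was read at 47.9 CPM in WT replicate 2, 14.7 and 14.1 CPM in Pcgf3KO, 14.8 and 14.6 CPM in Pcgf5KO and 22.7 and 24.5 CPM in DKO.

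Negative differences were -4.28 for Gstp2, -3.66 for Maml2, -2.37 for Ankrd34a, -2.18 for Krt42, -2.03 for Gstp1, -1.88 for Serpina3m, -1.84 for Dnmt3l, -1.78 for Xbp1, -1.77 for S100a6, -1.44 for Tmem88, -1.34 for Pcolce, -1.17 for Exoc3l, -1.12 for Synpo2 and -1.08 for Atcay. Acta2 (-2.19) and Igf2bp3 (-1.71) had a negative value in both backgrounds and the larger fall in Pcgf5KO cells. Dnmt3l, a cofactor of de novo DNA methylation, was read at 212 CPM in WT replicate 2, 642 and 695 CPM in Pcgf3KO, 564 and 559 CPM in Pcgf5KO and 484 and 501 CPM in DKO, and its change in DKO against Pcgf5KO did not pass the threshold (adjusted p = 0.137).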

How the results depend on the processing

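Counts of calls, higher then lower, moved by over 1.5 times under several settings. For DKO against Pcgf5KO they were 362 and 448 with DESeq2, 1183 and 1129 without the filter, 4 and 3 with 4 libraries only, and 33 and 31 with 8 libraries over the 2702 genes all of them list. For the added-loss genes they were 200 and 271 with DESeq2, 529 and 582 without the filter and 15 and 14 with 8 libraries. The limit of 0.3 gave 45 higher and the length offset 180 lower. For the interaction they were 942 and 962 without the filter and 95 and 92 with 8 libraries. The length offset, chosen after seeing the data, called 167 higher and 284 lower, so that 37% of calls were higher against 43.7% in the test reported. RLE factors gave 165 and 206.

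Leaving out 1 library gave 1 to 3233 higher and 2 to 3350 lower calls, 1 to 1846 and 1 to 1917 added-loss genes, and 13 to 2700 and 22 to 3012 interaction calls. The lowest values came without Pcgf5KO replicate 1 and the highest without DKO replicate 2; a lone sample is then assumed to vary like the other groups. Without WT replicate 2 the DKO calls were 155 and 182, and the added-loss genes and the interaction could not be given. With 4 libraries only they could not be given either.

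With the replicate number as a block the calls were 708 and 824, the added-loss genes 350 and 448 and the interaction calls 599 and 706. Deviations of equal numbers correlated at 0.03 between DKO and Pcgf5KO, 0.18 between DKO and Pcgf3KO and -0.03 between Pcgf3KO and Pcgf5KO. With 2 numbers a group and no label that ties them, they are not taken to pair the samples.

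All 357 calls kept their sign in every setting that tested them. Acta2, Efhc2 and Rhox5 alone were past the threshold in each of these. Tfcp2l1, Tagln, Sema5a and Ak4 missed it only without a Pcgf5KO replicate. The log2 fold changes of the uncalled genes Fn1 and Kdm5d were -0.10 and -0.10 with the length offset, and with 1 DKO replicate left out they were -0.068 and 0.16 for Fn1 and 0.32 and -0.25 for Kdm5d. The cause of these shifts was not tested, apart from the fewer genes or libraries that a setting leaves. Depth limits genes of low level most.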
